A study of Mus musculus with 4 samples.

Results

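The genes described here are antisense RNAs: noncoding transcripts that the deposited gene table annotates with the biotype antisense, most of which lie across a protein-coding gene on the opposite DNA strand. They were chosen by level, as antisense genes whose raw counts summed to 500 or more over the 4 libraries. Genes on chromosomes X and Y, in the imprinted Dlk1-Dio3 cluster of chromosome 12, and on the distal parts of chromosomes 14 and 17, and the imprinted antisense RNAs Airn and Kcnq1ot1, were left out. This gave 96 antisense RNAs out of 2805 in a table of 54146 mouse genes. The count threshold alone gave 100, of which Airn, Kcnq1ot1 and the X-linked Tsix and Gm14820 were left out. Just under the threshold lay Gm44767, 0610040F04Rik and Gm26771 with sums of 489, 490 and 495, and just above it Gm26982, Tspan32os and Phtf1os with 503, 504 and 505. Of the 96, 90 overlapped at least 1 protein-coding gene on the other strand, called the coding partner below; where there were several, in 20 cases, the one with the longest overlap was taken. The remaining 6 (Map2k3os, Gm11520, B230369F24Rik, AV099323, Gm28727 and 2010309G21Rik) overlapped none.

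Antisense transcription arises in several ways. It can start at the same promoter region as a coding gene and run the other way, start inside the coding gene, or run in from beyond the coding gene's 3′ end. Many such RNAs are spliced poorly, stay in the nucleus and are degraded quickly by the nuclear exosome, so that they are measured better in freshly made RNA than in the accumulated pool. Some antisense RNAs repress their coding partner, as at imprinted loci, some accompany its transcription, and for most no role is known.

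The study measured nascent RNA by TT-seq, in which cells take up 4-thiouridine (4sU) for a short time and the labelled RNA is purified, fragmented and sequenced. The cells were mouse embryonic stem (ES) cells in LIF and serum, with 2 libraries labelled Supt3 WT and 2 labelled Supt3 KO. Supt3 codes for a core subunit of the transcription coactivator SAGA; how the mutation was made, and whether the libraries of a genotype are separate cultures or clones, is not in the labels, and the p-values cover only the library-to-library spread, which may be technical. Labelled S. pombe (fission yeast) RNA was added to all 4 as a spike-in.

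Counts on mouse genes came to between 13.1 M and 19.4 M (M, 1e6) per library, and on S. pombe genes to between 3.46 M and 4.84 M. Supt3 itself had 148 and 159 CPM (counts per 1e6 mouse counts, scaled by TMM) in WT replicates 1 and 2, and 123 and 140 in KO replicates 1 and 2, a log2 fold change of -0.22 ± 0.10 (SE) that did not pass (edgeR quasi-likelihood test, adjusted p = 0.232), so its level alone does not tell the genotypes apart. Of 8 ES cell markers, 7 of them tested, 3 fell in KO (Nanog -0.53, Tfcp2l1 -0.73 and Klf4 -0.87), beside 4.02% of all genes tested, and the summed level of the 8 was 1972 to 2058 CPM in WT and 1212 to 1588 in KO. Sox2, which lies within Sox2ot on the same strand, was listed at 0, and Pou5f1 had 139 and 128 CPM in WT and 154 and 135 in KO. Of 8 primitive endoderm markers 7 rose, beside 4.05% of all genes, with a summed level of 402 to 492 CPM in WT and 819 to 1175 in KO. Of 10 fibroblast (feeder) markers 5 could be tested and 0 were called (3 at an unadjusted p under 0.05). Their summed level was 42.5 to 52.8 CPM in WT and 40.7 to 53.0 in KO, most of it Vim (36.7 to 45.7 and 34.4 to 45.1), the gene of an intermediate filament that other cell types also make. Each of the other 9 was at 3.56 CPM or less in every library and none was at 0 in all 4; Twist2 stood at 0.82, Thy1 at -0.79 and Col3a1 at -1.19. The ES and endoderm marker levels move with genotype in the same libraries as the antisense RNAs, and their part in the results below was not tested. In such bulk samples fewer cells of a type and less RNA per cell cannot be told apart.

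The results turn on a few pairs, and 5 promoter sequences are shown for 3 of them. At Panct2 and Slco4c1 both strands fell in KO, at 6330410L21Rik and Egf the strands differed in their change, and at A930024E05Rik, which shares its promoter region with Kdm2b, both rose. Each is 300 bases long, read 5′ to 3′ along the strand of its own gene, from 250 bases before to 50 bases after the start of the RefSeq gene model (GRCm38.p6). Capitals mark the GC box GGGCGG on either strand (its reverse complement reads CCGCCC), a sequence bound by Sp1-family factors. None of the 5 holds a TATA box (TATAAA) or a CCAAT box (CCAAT) on either strand.
Panct2, chr1:96870876-96871175, plus strand: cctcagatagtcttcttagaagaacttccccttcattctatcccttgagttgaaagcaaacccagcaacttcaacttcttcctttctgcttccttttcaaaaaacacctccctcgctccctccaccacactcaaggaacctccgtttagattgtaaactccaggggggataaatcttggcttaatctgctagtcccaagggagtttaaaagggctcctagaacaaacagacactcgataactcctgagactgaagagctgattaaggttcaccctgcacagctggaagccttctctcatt
Slco4c1, chr1:96872122-96872421, minus strand: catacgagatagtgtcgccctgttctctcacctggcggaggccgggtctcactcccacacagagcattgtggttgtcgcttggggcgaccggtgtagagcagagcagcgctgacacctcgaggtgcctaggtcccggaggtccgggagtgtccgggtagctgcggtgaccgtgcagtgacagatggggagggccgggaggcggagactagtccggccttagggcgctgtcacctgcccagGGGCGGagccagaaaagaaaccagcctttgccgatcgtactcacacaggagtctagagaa
6330410L21Rik, chr3:129753508-129753807, plus strand: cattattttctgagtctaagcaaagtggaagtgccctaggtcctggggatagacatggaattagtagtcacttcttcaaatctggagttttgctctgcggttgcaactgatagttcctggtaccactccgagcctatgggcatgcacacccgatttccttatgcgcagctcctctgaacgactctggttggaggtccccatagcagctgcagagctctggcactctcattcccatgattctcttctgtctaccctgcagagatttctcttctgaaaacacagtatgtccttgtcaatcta
Egf, chr3:129755273-129755572, minus strand: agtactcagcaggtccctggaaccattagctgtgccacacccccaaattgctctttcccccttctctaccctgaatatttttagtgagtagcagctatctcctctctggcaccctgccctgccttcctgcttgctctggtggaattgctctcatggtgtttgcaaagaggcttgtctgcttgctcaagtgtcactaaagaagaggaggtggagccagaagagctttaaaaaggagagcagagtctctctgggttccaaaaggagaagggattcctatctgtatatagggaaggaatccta
A930024E05Rik, chr5:122989104-122989403, plus strand: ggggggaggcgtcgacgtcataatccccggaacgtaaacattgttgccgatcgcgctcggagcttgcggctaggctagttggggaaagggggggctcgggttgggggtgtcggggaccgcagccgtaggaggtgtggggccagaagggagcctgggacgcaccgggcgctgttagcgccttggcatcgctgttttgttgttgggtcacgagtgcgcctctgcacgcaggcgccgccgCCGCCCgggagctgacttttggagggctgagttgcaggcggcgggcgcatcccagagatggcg

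These promoters are of different kinds. The window of A930024E05Rik holds 31 CpG dinucleotides and that of Slco4c1 holds 21, as in a CpG island promoter, and each has 1 GC box. Panct2 has 3 CpG, 6330410L21Rik 5 and Egf 0, with no GC box. RefSeq windows were found for 44 of the 96 antisense RNAs and 66 of the 90 partners. The RefSeq start lay at or near that of the counted gene in 27 of the 44 and 46 of the 66. In others it lay far off, by 144556 bases for 1600010M07Rik and 91355 for Gm26691. The windows of all genes were not chosen by level, as the antisense RNAs were, so the values below describe the chosen set. The median was 21.5 CpG for the antisense RNAs and 20.5 for the partners, beside 7 over all 32851 mouse promoter windows, and the median GC content was 62.0%, 59.0% and 52.7%. A GC box was found in 50.0% of the antisense windows, 57.6% of the partner windows and 35.7% of all windows. A CCAAT box was in 50.0%, 40.9% and 37.4%, and a TATA box in 9.09%, 10.6% and 13.6%. These are letter matches in the window, on either strand and without regard to overlap, and antisense and partner windows can share bases: the window of Kdm2b mostly overlaps that of A930024E05Rik.

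Whether a table can tell the 2 strands apart decides what antisense values mean, and the counts themselves showed it. Genes lying wholly within a host of at least 1000 counts on the same strand were at 0 in 2475 of 2475 cases. Within hosts on the opposite strand 54.2% (1249 of 2305) were at 0. Reads were therefore assigned by strand and to whole gene spans, introns included, and reads falling where 2 genes of 1 strand overlap were not counted. From small-RNA and pseudogene rows inside hosts on the other strand, leakage of host reads to the wrong strand was put at 4.76% of the host's level per base. Transcription of the rows themselves would raise this value. Rows that also lay within a gene of their own strand, where reads were not counted, were kept and would lower it. It is therefore an average and not an upper bound, and the shares that follow carry the same limit. At that average, reads from the coding partner could make up a median of 0.708% of an antisense RNA's counts and over 10% in 12 of the 90. The highest value was 189%, for 1600010M07Rik, whose counts were below what that average would give and cannot be told apart from leakage of Ipo7, the importin gene inside it. Among the antisense RNAs called as changed below it exceeded 10% in 2, Gm8739 (21.1%) and Gm28376 (16.9%).

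The 96 antisense RNAs were mostly low. Their mean over the 4 libraries had a median of 13.02 CPM and ranged from 7.80 to 123. Their annotated spans ran from 0.497 to 410 kb with a median of 15.8 kb, and the level per kb of span, the scale on which genes are compared here, ran from 0.0211 to 32.8 CPM per kb with a median of 1.04. In 20 of the 96, Tug1, Rab26os and B930036N10Rik included, a gene on their own strand overlapped them, so that reads in the shared stretch were not counted and the level per kb of span is understated. Of the 96, 78 carried predicted-gene names (Gm or Rik) and 12 names ending in os, for opposite strand. The GENCODE M21 models had a median of 3 exon blocks, 10 had a single one, and in 70 of 90 pairs exons of the antisense RNA and of the partner overlapped.

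The 8 highest levels per kb belonged to units shorter than the median. Rab26os, inside the gene of the secretory-granule GTPase Rab26, had 32.8 CPM per kb over its 0.497 kb. Gm43803, inside Lhfp, had 22.3 and Lrrc75aos2, inside Lrrc75a, 20.5. Then came Tug1, a long noncoding RNA whose start lies 0.179 kb from that of the chromatin ATPase gene Morc2a, with 12.5, and Gt(ROSA)26Sor, the noncoding RNA of the Rosa26 locus into which transgenes are commonly placed, with 12.1. Gm37634 (10.2), B930036N10Rik (9.55) and Nespas (8.09), an antisense RNA of the imprinted Gnas locus, completed the first 8. Gm37634 began 2.08 kb after the end of Gas5 on its own strand and Lrrc75aos2 0.959 kb after 2410006H16Rik. Such a counted gene ending within 10 kb upstream on the same strand was found for 11 of the 96, and for 0 of the 19 that changed.

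On the scale of CPM per kb the antisense strand was often as active as the coding strand. In the 88 pairs whose partner had any count, the antisense level was a median of 111% of the partner's (quartiles 38.1% and 645%). It lay above the partner's level in 48 pairs and below it in 40. Only 1600010M07Rik, at 0.632% of Ipo7, and Gm11508, at 0.931% of the splicing factor gene Srsf1, were under 1%, and 11 pairs were between 1 and 10%. The partners Dnase1 and Fabp2 were at 0 in all 4 libraries. As a high level was the entry rule for the antisense RNAs and not for the partners, this comparison describes the chosen set only. The 20 with an own-strand overlap enter it with understated levels. Partners, Dnase1 and Fabp2 included, were not checked for own-strand overlaps, which would understate their levels in the same way.

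**Figure D1:**
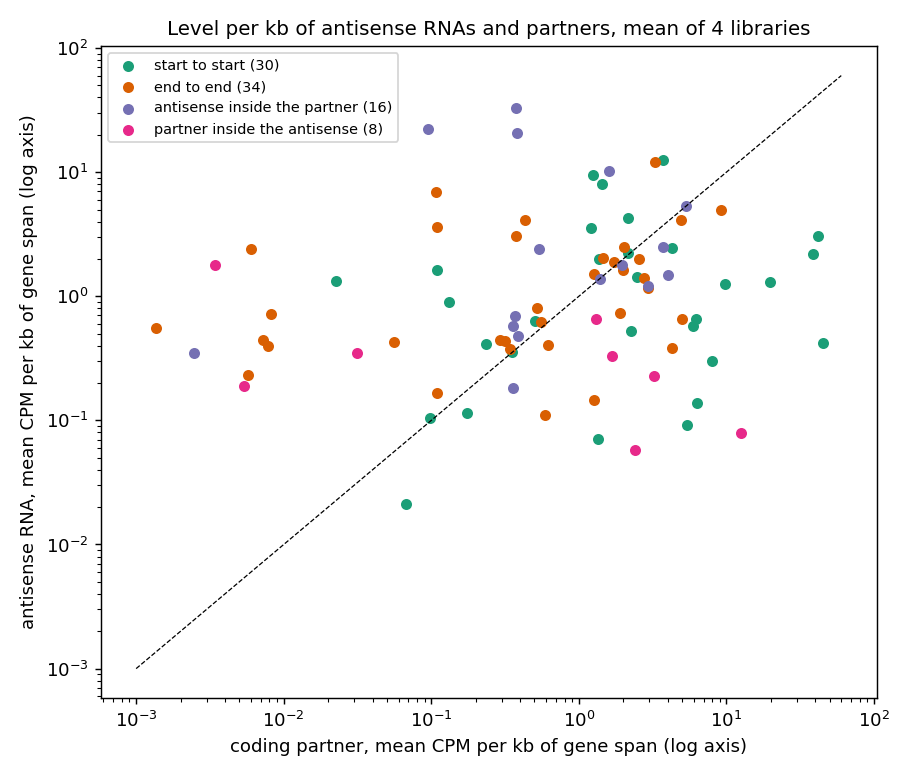
Mean level over the 4 libraries of each antisense RNA (vertical axis) against that of its coding partner (horizontal axis), both in CPM per kb of gene span on log axes; each point is a pair, coloured by its layout, and the line marks equal levels. The points lie on both sides of the line, 48 above it and 40 below.

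The pairs fell into 4 layouts. In 34 the genes overlapped end to end at their 3′ sides, in 31 start to start, 16 antisense RNAs lay inside their partner and 9 enclosed it. The start-to-start pairs began 39 to 11116 bases apart with a median of 720, and 17 of them under 1 kb apart, the arrangement of a shared bidirectional promoter region. The antisense level per kb was a median of 142% of the partner's for antisense RNAs inside the partner, 131% end to end, 61.7% start to start and 34.9% for antisense RNAs that enclosed it.

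**Figure D2:**
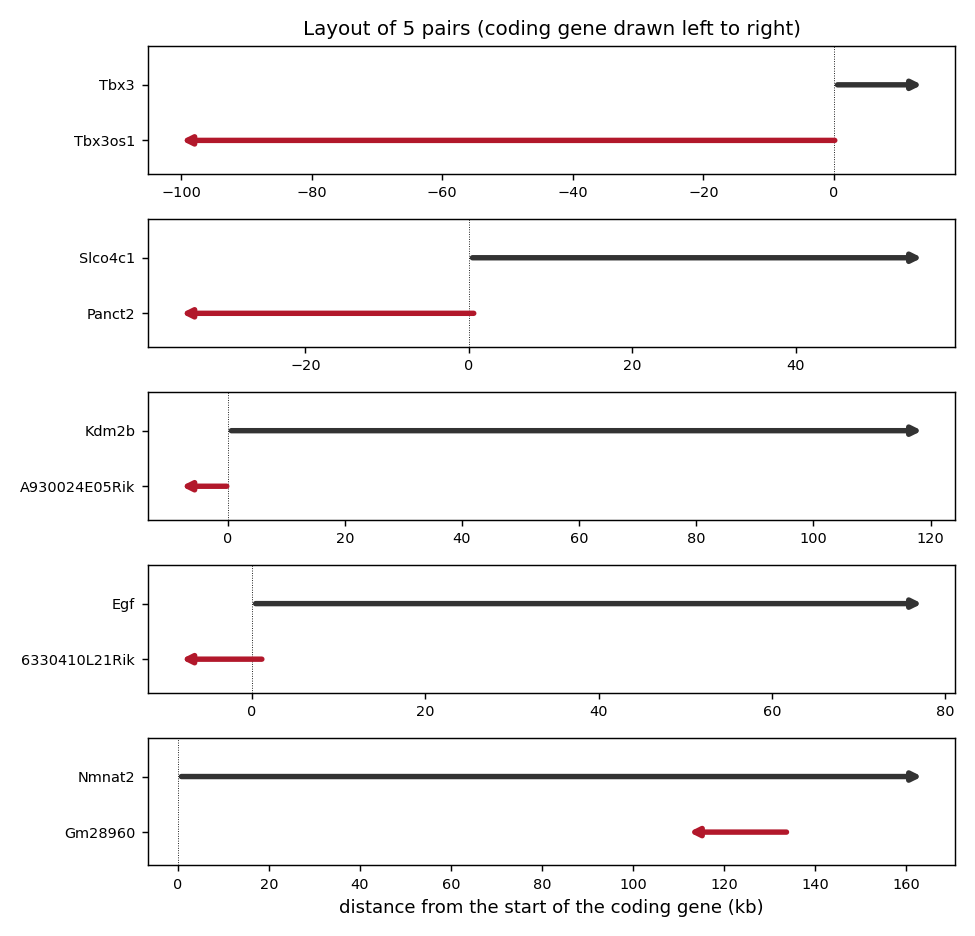
Layout of 5 pairs to scale, as distance in kb from the start of the coding gene (horizontal axis, dotted line at 0); dark arrows are the coding genes, drawn left to right, and red arrows their antisense RNAs, each pointing from start to end. Tbx3os1, Panct2, A930024E05Rik and 6330410L21Rik start near the start of their partner and run the other way, and Gm28960 lies inside Nmnat2.

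The comparison of KO with WT asked whether loss of Supt3 alters ongoing antisense transcription. All 96 antisense RNAs passed the filter on low counts. Of them, 13 fell and 6 rose in KO at an adjusted p under 0.05 (edgeR quasi-likelihood test, Benjamini-Hochberg over 16789 genes), 77 were not called, and 28 were at an unadjusted p under 0.05. The called share was 19.8%, beside 8.07% of all genes tested, 9.82% of genes of any biotype with a count sum of 500 or more, and 7.15% of all tested antisense genes, most of which have fewer counts. The falls were 13.5% of the 96, beside 4.02% of all genes and 4.36% of those with a count sum of 500 or more, and the rises 6.25%, beside 4.05% and 5.46%. These shares are descriptions of the chosen set: the count rule used the same libraries, and 17 of the 96 passed it through their WT counts (their KO counts doubled sum to less than 500), 7 of the 13 that fell among them. Those 7 were Tbx3os1, 6330410L21Rik, Gm8739, Gm42723, 4930533K18Rik, 4933406J09Rik and Map2k3os. Another 5 of the 96 passed through their KO counts, 0 of the 6 that rose among them. The median log2 fold change was -0.05 (quartiles -0.28 and 0.14), beside 0.01 for all genes (quartiles -0.20 and 0.19). KO and WT libraries did not overlap in 56 of the 96, 58.3% beside 52.7% of all genes, with KO below WT in 35 (26% of all genes) and above it in 21 (26.7%). In all 19 called antisense RNAs they did not overlap, which is no separate support, as the calls rest on the same 4 libraries. Of the 19, 11 changed at least 2-fold, 7 of them downwards. The call held without any 1 library in 13 of the 19.

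With the S. pombe spike-in as the scale, 0 of the 96 were called (edgeR; 0.101% of all genes): the median of all genes then shifted to -0.23 and that of the antisense RNAs to -0.29. The authors' deposited table, which is scaled to the spike-in, also had 0 of the 96 at an adjusted p under 0.05 and 8 of all its genes. The changes given here are therefore relative to the bulk of mouse transcription in each library.

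**Figure D3:**
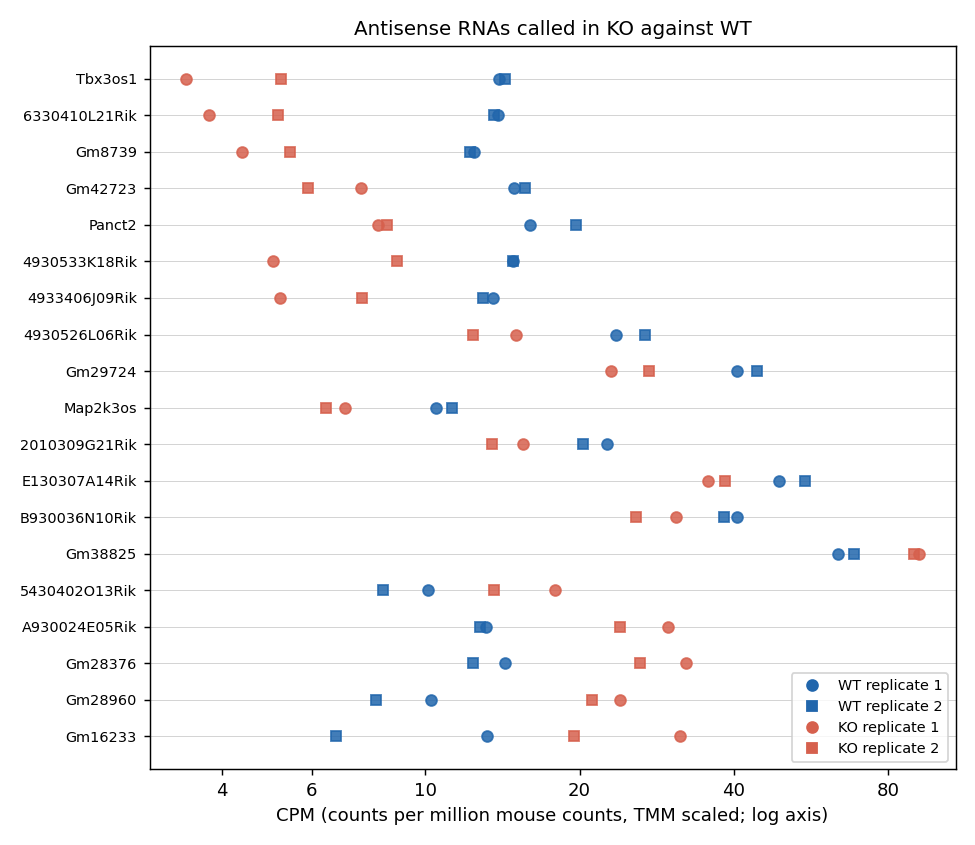
CPM of the 19 called antisense RNAs in each of the 4 libraries, on a log axis, ordered by log2 fold change; circles are replicate 1 and squares replicate 2 of each genotype. In every one both KO points lie on the same side of both WT points.

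The largest fall was that of Tbx3os1 (ENSMUSG00000087516, chr5:119570130-119671365, minus strand, mm10). It runs away from Tbx3, a T-box transcription factor gene active in naive ES cells, with starts 0.696 kb apart. Tbx3os1 had 13.9 and 14.3 CPM in WT replicates 1 and 2 and 3.41 and 5.22 in KO replicates 1 and 2. Tbx3 had 107 and 125 in WT and 24.6 and 45.6 in KO. Both were low in both KO libraries, lower in KO replicate 1, and without overlap. The log2 fold changes were -1.69 ± 0.21 for Tbx3os1 (edgeR, adjusted p = 0.00300) and -1.71 ± 0.23 for Tbx3 (adjusted p = 0.00401). Antisense counts per 100 counts of Tbx3 were 12.97 and 11.5 in WT and 13.9 and 11.4 in KO, with overlapping groups. The difference of the 2 changes was 0.03 ± 0.28 (SE; adjusted p = 0.965).

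Panct2 (ENSMUSG00000097814, chr1:96871126-96907796, plus strand), named as a pluripotency-associated noncoding transcript, fell together with Slco4c1, an organic anion transporter gene whose start lies 1.04 kb inside it. Panct2 had 16.0 and 19.7 CPM in WT and 8.09 and 8.42 in KO (-1.11 ± 0.16, adjusted p = 0.00555). Slco4c1 had 28.7 and 29.1 in WT and 9.79 and 11.2 in KO (-1.46 ± 0.13, adjusted p = 0.00109). Both KO libraries were well below both WT libraries on both strands, and the windows shown above, CpG-poor for Panct2 and CpG-rich for Slco4c1, differ in composition. The difference between the strands, 0.35 ± 0.24, did not pass (adjusted p = 0.402 over 539 pairs).

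A930024E05Rik (ENSMUSG00000056735, chr5:122989354-122998345, plus strand) rose together with Kdm2b, the gene of a CpG-island-binding histone demethylase of a Polycomb complex, from starts 0.469 kb apart. Its own CpG-rich window is shown above. Its CPM were 13.1 and 12.8 in WT and 29.8 and 24.0 in KO (1.05 ± 0.15, adjusted p = 0.00468). Kdm2b had 211 and 223 in WT and 303 and 287 in KO (0.44 ± 0.10, adjusted p = 0.0262). Neither strand overlapped between genotypes. The antisense RNA gained 0.60 more on the log2 scale, which did not pass (adjusted p = 0.0756), and the call of Kdm2b was lost without either WT library (adjusted p up to 0.256).

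Opposite calls were made in 2 pairs. Gm28960 (ENSMUSG00000099969, chr1:153066481-153089507, minus strand) lies inside Nmnat2, the gene of a neuronal NAD-synthesis enzyme. It had 10.3 and 7.999 CPM in WT and 24.0 and 21.2 in KO, and rose (1.32 ± 0.16, adjusted p = 0.00297). Nmnat2 had 66.5 and 72.9 in WT and 48.0 and 55.8 in KO, and fell (-0.42 ± 0.11, adjusted p = 0.0452). Antisense counts per 100 coding counts were 15.4 and 10.97 in WT and 50.1 and 37.9 in KO. The difference was 1.74 ± 0.24 (adjusted p = 3.06e-10, edgeR fit of pairs). That p-value rests on a spread largely shared over pairs, as described below. The difference passed without any 1 library (1.49 to 1.99), while the fall of Nmnat2 was lost without WT replicate 2 or KO replicate 1 (adjusted p up to 0.260) and with DESeq2 (0.0600).

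The other was E130307A14Rik (ENSMUSG00000087177, chr10:39621412-39732007, minus strand), which overlaps 33.9 kb of Traf3ip2, the gene of an adaptor of the interleukin-17 receptor, end to end. It had 49.0 and 55.1 CPM in WT and 35.7 and 38.5 in KO, and fell (-0.49 ± 0.11, adjusted p = 0.0261). Traf3ip2 had 20.6 and 22.5 in WT and 31.7 and 30.7 in KO, and rose (0.53 ± 0.11, adjusted p = 0.0260). Antisense counts per 100 coding counts went from 238 and 244 to 113 and 126, which is -1.02 ± 0.22 (adjusted p = 0.000205). These calls are near the threshold: that of the antisense RNA was lost without WT replicate 2 (adjusted p = 0.195), that of Traf3ip2 without WT replicate 1 (0.102) and that of the ratio without either (up to 0.113).

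In 9 further pairs the antisense RNA was called and its tested partner was not. 6330410L21Rik (ENSMUSG00000105960, chr3:129753758-129763884, plus strand) starts 1.56 kb inside the span of Egf, the gene of epidermal growth factor, and runs out past the start of Egf. It had 13.9 and 13.6 CPM in WT and 3.78 and 5.16 in KO, a log2 fold change of -1.60 ± 0.19 (adjusted p = 0.00268). Egf had 9.16 and 12.9 in WT and 9.12 and 9.87 in KO, with overlapping groups (-0.22 ± 0.19, adjusted p = 0.554). The antisense RNA thus went from 151 and 106 counts per 100 of Egf to 41.5 and 52.3, and the difference of -1.40 ± 0.28 passed (adjusted p = 4.24e-05), though not with a term for the depth of the libraries (adjusted p = 0.0621).

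4930533K18Rik had 14.8 CPM in both WT libraries and 5.04 and 8.81 in KO (-1.07 ± 0.23, adjusted p = 0.0261). Bicc1, the gene of an RNA-binding protein, overlaps it end to end and had 23.7 and 21.6 in WT and 28.4 and 30.0 in KO (0.37 ± 0.12, adjusted p = 0.0924). The antisense RNA was low and the partner high in both KO libraries, and the difference of -1.47 ± 0.24 passed (adjusted p = 3.20e-07). Gm8739, which encloses the F-box gene Fbxw17, had 12.5 and 12.2 CPM in WT and 4.38 and 5.44 in KO (-1.32 ± 0.18, adjusted p = 0.00457), beside 38.9 and 39.0 against 37.9 and 37.0 for Fbxw17. Its ratio fell as well (-1.26 ± 0.24, adjusted p = 2.38e-05), and at the average leakage given above 21.1% of its counts could come from the partner.

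B930036N10Rik, divergent from the mRNA export factor gene Alyref2, had 40.6 and 38.2 CPM in WT and 30.9 and 25.8 in KO (-0.48 ± 0.12, adjusted p = 0.0446). That call was lost without WT replicate 1, WT replicate 2 or KO replicate 2 (adjusted p up to 0.0957). 4933406J09Rik had 13.6 and 12.97 in WT and 5.19 and 7.52 in KO (-1.04 ± 0.20, adjusted p = 0.0157), with the BCL2-family gene Bcl2l14 at -0.44 ± 0.28 (adjusted p = 0.414). Gm29724 had 40.7 and 44.3 in WT and 23.1 and 27.3 in KO (-0.75 ± 0.12, adjusted p = 0.00824), and its partner Adamts8, a secreted metalloprotease gene, -0.64 ± 0.22 (adjusted p = 0.125). In both of these pairs the estimates of the strands had the same sign, and the difference between strands did not pass.

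The rises without a called partner were Gm28376, 5430402O13Rik and Gm38825. Gm28376 had 14.3 and 12.4 CPM in WT and 32.3 and 26.2 in KO (1.13 ± 0.15, adjusted p = 0.00381), and overlaps 127 kb of the junctophilin gene Jph1, which had 73.5 and 56.7 in WT and 101 and 85.3 in KO (0.52 ± 0.14, adjusted p = 0.0523, and 0.0241 with DESeq2). At the average leakage given above, 16.9% of the counts of Gm28376 could come from Jph1. 5430402O13Rik had 10.1 and 8.26 in WT and 17.95 and 13.6 in KO (0.78 ± 0.19, adjusted p = 0.0370), and lost its call without WT replicate 2 (0.125). Gm38825, the antisense RNA of the mRNA-binding protein gene Serbp1, had 63.9 and 68.7 in WT and 92.0 and 89.8 in KO (0.45 ± 0.09, adjusted p = 0.0181), and lost its call without either WT library (up to 0.120). Serbp1 stood at 0.09 ± 0.13. This pairing rests on the deposited gene spans. The nearest RefSeq start lay 53018 bases from the counted start for Gm38825 and 28803 bases for Serbp1.

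The other 5 called antisense RNAs had a partner too low to test or none. Gm16233, end to end with the chloride-channel regulator gene Clca4a, had 13.2 and 6.69 CPM in WT and 31.4 and 19.5 in KO (1.38 ± 0.31, adjusted p = 0.0295). Its WT libraries differed from each other by more than WT replicate 1 and KO replicate 2 did. Gm42723, on the strand opposite Lgi1, fell from 14.9 and 15.7 to 7.49 and 5.89 (-1.20 ± 0.17, adjusted p = 0.00523). 4930526L06Rik, which encloses the B-cell antigen gene Ms4a1, fell from 23.5 and 26.8 to 15.1 and 12.4 (-0.88 ± 0.15, adjusted p = 0.00943). Their partners were at 0.523 CPM or less in every library, so nearly all counts of these pairs fell on the antisense RNA. 4930526L06Rik overlaps 3 coding genes on the other strand, of which only Ms4a1 is given here. Own-strand overlaps of the partners, which would lower their counts, were not checked. Map2k3os (10.5 and 11.3 in WT, 6.97 and 6.40 in KO) and 2010309G21Rik (22.6 and 20.3 in WT, 15.5 and 13.5 in KO) overlap no coding gene on the other strand. Their log2 fold changes were -0.71 ± 0.17 and -0.57 ± 0.14 (adjusted p = 0.0367 and 0.0414), and the calls were lost without WT replicate 2 (0.203) and without WT replicate 1 or KO replicate 2 (up to 0.132). Gm16233, Map2k3os, 2010309G21Rik and B930036N10Rik were not called by DESeq2.

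Among the 6 that rose, KO replicate 1 was above KO replicate 2 in all 6, and among the 13 that fell it was below it in 8. KO replicate 1 also stood apart in 3 uncalled antisense RNAs. Gm15283, which encloses the hypoxia factor gene Hif1a, had 40.6 CPM there and 18.01 to 20.4 in the other 3 libraries. Gm15839 had 22.5 there and 10.1 in KO replicate 2, and 5830418P13Rik 22.1 and 13.5.

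Of the 90 partners, 80 had counts enough to be tested. In KO 4 of them rose (Kdm2b, Traf3ip2, Echdc1 and Sec24c) and 6 fell (Tbx3, Slco4c1, Nmnat2, Kcnab1, Ttyh1 and Pzp), which is 12.5% beside 8.14% of all protein-coding genes, and their median log2 fold change was 0.00. Over the 80 pairs, 5 had both strands called, 3 in the same and 2 in opposite directions, 9 had the antisense RNA alone, 5 the partner alone and 61 neither. Pearson's r of the 2 log2 fold changes across the 80 pairs was 0.247, and 0.0680 without the pairs of Tbx3os1 and Panct2. The strands of a pair share their libraries and scaling, so the r is a description. Pzp, a protease inhibitor gene, had 3.37 and 3.50 CPM in WT and 1.63 and 1.12 in KO (-1.34 ± 0.30, adjusted p = 0.0289), and its antisense RNA Gm10069 stood at -0.43 ± 0.12 (adjusted p = 0.0645). Sec24c, a gene of the vesicle coat COPII, had 36.8 and 33.2 in WT and 50.4 and 45.5 in KO (0.45 ± 0.11, adjusted p = 0.0363), with 6230400D17Rik at -0.09 ± 0.13. The number of partners called fell to 5 without WT replicate 2 and rose to 17 without KO replicate 2.

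**Figure D4:**
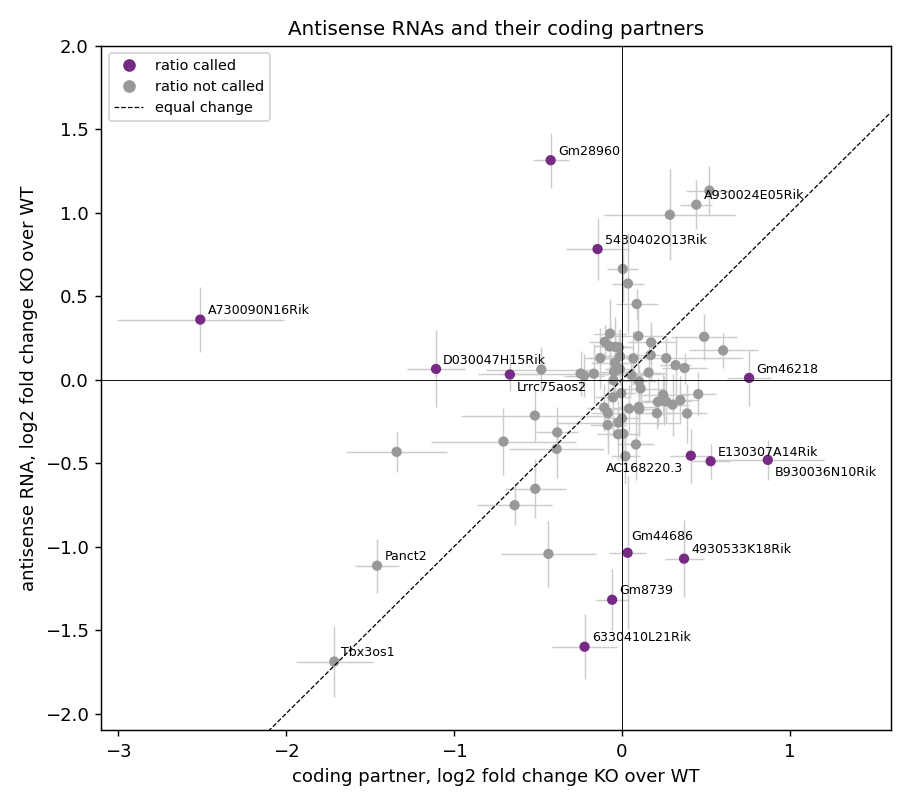
Log2 fold change (KO over WT) of the antisense RNA (vertical axis) against that of its coding partner (horizontal axis) for the 80 tested pairs, with standard errors; the dashed line marks equal change and coloured points are pairs whose ratio was called. Tbx3os1 lies on the line at about -1.7 on both axes, while Gm28960 lies far above it and 6330410L21Rik far below.

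To ask whether the strands changed differently, antisense and coding counts of each pair were fitted together. The SEs of this fit follow a spread largely shared over pairs, more than each pair's own libraries. Gm44686 had 3.31 and 0.990 antisense counts per 100 of its partner in WT replicates 1 and 2. Its ratio SE was still 0.25, beside 0.46 for its own change in the gene fit. The ratio p-values should therefore not be set beside those of single genes. The ratio of antisense to coding counts differed between genotypes in 13 of the 80 pairs, 16.25% beside 11.7% of the 539 pairs tested over all antisense genes. It was higher in KO in 5 (3.90% of all pairs were higher) and lower in 8 (7.79%). Of the lower ones, 4930533K18Rik, 6330410L21Rik, Gm8739, Gm44686 and AC168220.3 entered the set through their WT counts, so the count rule favoured a lower ratio in KO. Of the higher ones, A730090N16Rik entered through its KO counts. In 5 of the 13 the antisense RNA alone had been called, in 3 the partner alone, in 2 both and in 3 neither. Of the 13 ratios, 4 passed without any 1 library: those of Gm28960, 4930533K18Rik, 6330410L21Rik and Gm8739. With the depth term 4 were called, Gm28960, 4930533K18Rik, Gm8739 and E130307A14Rik. The count was 7 without WT replicate 1, 6 without WT replicate 2, 8 without KO replicate 1 and 9 without KO replicate 2.

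In the 3 pairs where the partner alone was called, the coding strand carried most of the difference. Kcnab1, the gene of a potassium channel subunit, had 1.17 and 1.098 CPM in WT and 0.223 and 0.168 in KO (-2.51 ± 0.50, adjusted p = 0.0182), while A730090N16Rik inside it had 7.48 and 7.58 in WT and 8.16 and 11.1 in KO (0.36 ± 0.20, adjusted p = 0.316). The ratio difference of 2.89 ± 0.61 rested on few Kcnab1 counts and was lost without KO replicate 2 (2.42, adjusted p = 0.105) and with the depth term (0.0561). Ttyh1, a chloride channel gene, fell from 11.7 and 12.9 to 5.41 and 6.003 (-1.11 ± 0.17, adjusted p = 0.00724), with D030047H15Rik, which overlaps it over 97.9% of its own length, at 0.06 ± 0.23. That ratio difference of 1.15 was 0.76 without KO replicate 1 and did not pass (adjusted p up to 0.284). Echdc1, a metabolite-repair enzyme gene, rose from 13.3 and 12.7 to 21.96 and 21.8 (0.76 ± 0.13, adjusted p = 0.0102), and Gm46218, starting 0.659 kb away, had 10.3 and 9.83 in WT and 9.20 and 10.9 in KO (0.01 ± 0.17). The ratio difference of -0.75 lost its call whichever of the 4 libraries was left out (adjusted p up to 0.294).

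In the 3 pairs with neither strand called the ratio rested on 1 library or on strand differences that did not pass by themselves. Gm44686, divergent from the chromatin remodeller gene Chd2, had 22.6 CPM in WT replicate 1 and 7.16, 8.68 and 5.67 in the other 3 libraries, and without WT replicate 1 its ratio difference went from -0.94 to -0.02. AC168220.3 and Dopey2 had estimates of -0.46 and 0.41, with a ratio difference of -0.86 (adjusted p = 0.00609, and up to 0.158 without 1 library). Lrrc75aos2 and Lrrc75a had 0.03 and -0.67, with 0.71 (adjusted p = 0.0201, and up to 0.390).

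**Figure D5:**
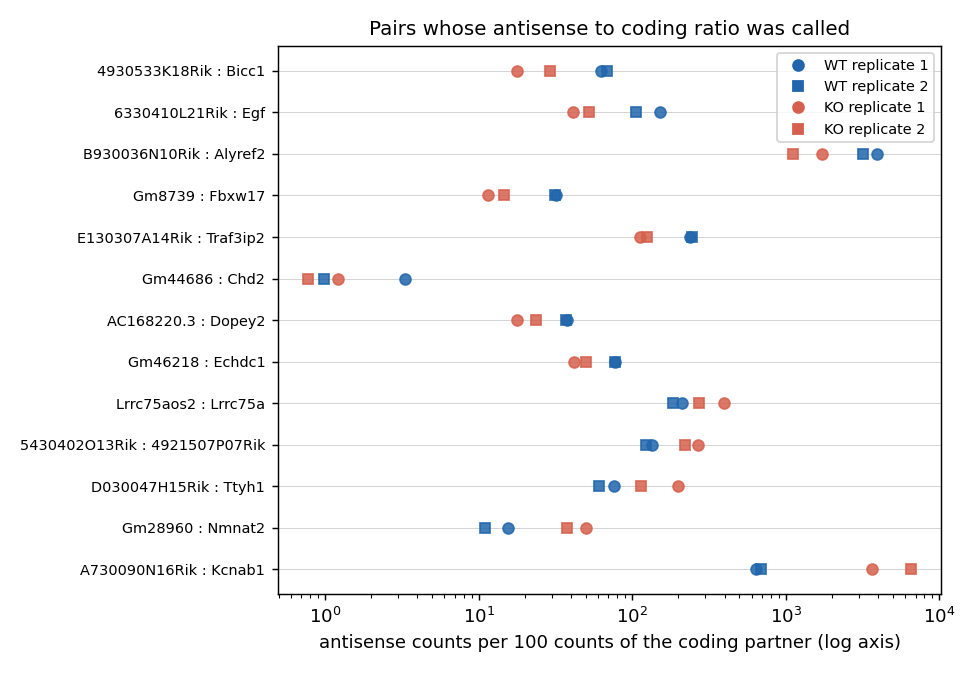
Antisense counts per 100 counts of the coding partner in each library, on a log axis, for the 13 pairs whose ratio was called; circles are replicate 1 and squares replicate 2 of each genotype. Gm28960 moves from 10.97 and 15.4 in WT to 37.9 and 50.1 in KO, and 6330410L21Rik from 106 and 151 to 41.5 and 52.3.

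Of the 8 antisense RNAs with the most counts per kb, 1 was called, beside 19.8% of the 96 and 8.07% of all genes. Tug1 had 127 and 114 CPM in WT and 130 and 121 in KO (0.06 ± 0.10, adjusted p = 0.754). Gt(ROSA)26Sor had 122 and 126 in WT and 112 and 122 in KO (-0.08 ± 0.09, adjusted p = 0.659). Nespas had 120 and 126 in WT and 101 and 113 in KO (-0.20 ± 0.09, adjusted p = 0.248), with Gnas, the gene of a G protein alpha subunit, at 0.21 ± 0.10 (adjusted p = 0.278). The WT and KO libraries of Tug1 overlapped, and those of the other two were separated by small steps. The called one was B930036N10Rik, given above, while Rab26os stood at -0.26 ± 0.14 and Gm37634 at 0.66 ± 0.20 (adjusted p = 0.0820).

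By layout, the called antisense RNAs were 7 of 34 end to end (3 higher, 4 lower), 7 of 31 start to start (2 higher, 5 lower), 2 of 9 that enclosed their partner (both lower) and 1 of 16 inside it (higher), beside 19.8% of all 96. Median log2 fold changes were 0.03, -0.16, 0.12 and -0.04. Of the 17 start-to-start pairs with starts under 1 kb apart, 3 had a called antisense RNA and 3 of 16 tested partners were called. Among the pairs with both strands called in the same direction, all 3 were start to start; in the opposite pairs 1 antisense RNA lay end to end and 1 inside the partner. No test of these differences between layouts was made.

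The share of all mouse counts that fell on the 96 antisense RNAs was 0.238% in both WT libraries and 0.245% and 0.225% in KO replicates 1 and 2. The means were 0.238% ± 0.0000994 (SD, n = 2) and 0.235% ± 0.0140 (SD, n = 2), and the difference of -0.00317 percentage points (0.00672 without KO replicate 2) gave p = 1 in an exact two-sided permutation test, whose smallest possible p with 2 against 2 is 0.33. For all antisense genes the shares were 0.432% and 0.429% in WT and 0.423% and 0.389% in KO (exact permutation p = 0.33). Per 100 S. pombe counts, the 96 had 0.773 and 1.33 counts in WT and 0.662 and 1.09 in KO (exact permutation p = 0.667), so that the libraries of a genotype differed more than the genotypes.

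Genes whose products end or degrade such RNAs were read from 3 lists. Integrator is the complex that cleaves and ends short noncoding transcripts of RNA polymerase II; of 14 tested members 1 rose, the subunit gene Ints9, from 158 and 157 CPM to 227 and 239 (0.57 ± 0.09, adjusted p = 0.00824), and the list's median was -0.05. Of 18 tested genes of the nuclear exosome and its adaptors, which degrade antisense and promoter-upstream RNA, 1 rose, the exonuclease gene Dis3, from 169 and 161 CPM to 225 and 227 (0.46 ± 0.09, adjusted p = 0.0182), with a list median of 0.07. Of 19 cleavage and polyadenylation genes 0 were called (edgeR; 0 at an unadjusted p under 0.05), with a median of -0.01, beside 0.01 and 8.07% called over all genes. Over the 3 lists 2 genes were called, but 1 without WT replicate 1, 0 without WT replicate 2 and 5 without KO replicate 2. Ints9 and Dis3 both lie on the distal part of chromosome 14 that was left out when the antisense RNAs were chosen.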

How the data were processed

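The authors deposited raw counts of mouse genes (54146) and spike-in genes, and a comparison table in which the authors had added signal values (counts divided by spike-in size factors), log2 fold changes and p-values. The submitters' processing notes list mm10, STAR 2.5.3 and HTSeq 0.6.1p1, with no role for each. Libraries were stranded (dUTP), per the labels' protocols. The counting settings (strand, feature) were read from nested genes, as no source used here gives them.

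Members and lists were chosen with earlier results of these data known. edgeR 4.0.16 (R 4.3.3; TMM, filterByExpr with minimum count 10, quasi-likelihood test) was fitted to 16789 genes, with Benjamini-Hochberg adjustment and a threshold of 0.05. SEs were derived from the F statistic (log2 fold change over root F). Ratios came from 539 pairs, with antisense and coding counts as separate columns, the library as a block and a genotype-by-strand term. Replicates were numbered in accession order. Alternatives were DESeq2 1.42.0, voom (limma 3.58.1), other scalings, filters and partner rules, and each library left out. Text names all called antisense RNAs (up to 12 a direction), the 8 highest per kb and the 6 ratios of lowest p; others were picked after their values were seen, and 1 partner among them is not reported.

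On simulated counts the gene fit called 23.7%, 62.0% and 92.0% of genes changed by 0.5, 1 and 2 (log2) and 0.0614% of unchanged ones. The pair fit called 11.1%, 55.0% and 94.3%, and 1.20% of unchanged pairs. These counts were drawn with the spread that the same gene fit estimated, with no library effect shared between genes and with few genes changed. The shares therefore check the fits and do not give the error rate or power of the real comparison. Totals were 13.1 M to 19.4 M mouse counts (M, 1e6). The biological coefficient of variation, the spread between libraries beyond counting error, was 0.0952 (genes) and 0.107 (pairs). For antisense RNAs with few counts, such as Tbx3os1 with 46 and 93 in KO replicates 1 and 2, counting error is larger than the 0.0952 of the gene fit.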

Additional observations from a re-analysis of the deposited data

How the results depend on the processing

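With 2 libraries a genotype, changes of low antisense RNAs under about 2-fold are often missed. The number of antisense RNAs called (19) was 0 with spike-in scaling, 31 with a depth term (replicate 1 and 2 libraries, which differ in depth; all 19 kept), and 9 of 39 with a count sum of 1000 or more. It was 15 to 25 without 1 library, 19 with DESeq2 size factors, voom or a minimum count of 30, 16 with DESeq2 (15 shared) and 27 with no filter. Called partners (10) were 0 with spike-in scaling, 18 with no filter, 28 with the depth term, 3 of 38 where the overlap covered at least 50% of the antisense RNA, and 5 to 17 without 1 library. Called ratios (13) were 6 with no filter, 4 with the depth term and 5 of 35 with the overlap rule, all 5 higher in KO. Called termination and decay genes (2) were 0 with spike-in scaling, 4 with the depth term and 0 to 5 without 1 library. The difference in share (-0.00317 percentage points) was -0.0131 to 0.00672 without 1 library, reversed without KO replicate 2, and kept its sign per S. pombe count. Over all genes tested, 1355 of 16789 were called in the reported fit, 4307 of 16789 with the depth term and 2460 of 29514 with no filter. The higher counts of called antisense RNAs and partners in those settings thus came with more calls over all genes. The cause of these shifts was not tested.

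Over the antisense RNAs named by the rule, their partners and 6 ratios, sign changes came to 15 values, none of a gene called in the TMM fit; other genes in the text were not followed across all settings. With spike-in scaling they were Gm43803 (-0.18), Lrrc75aos2 (-0.20), Tug1 (-0.17), Serbp1 (-0.14) and Gnas (-0.037). With no filter they were Morc2a (0.00018) and Thumpd3 (0.0084). Rab26 was 0.050 with voom. Without 1 library the ranges that crossed 0 were -0.0076 to 0.13 for Tug1, -0.44 to 0.056 for Egf, -0.44 to 0.70 for Rab26, -0.054 to 0.029 for Morc2a and -0.059 to 0.046 for Thumpd3.

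No paired analysis was possible because the labels give no replicate numbers; the depth term above uses pairs defined from the data.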

Other observations

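The antisense RNAs named for the coding gene on the opposite strand (12 with names ending in os) held 2 that fell, Tbx3os1 and Map2k3os (16.7%, beside 19.8% of the 96 and 8.07% of all genes), and their median log2 fold change was 0.01. The other 10 ranged up to 0.28, for Phtf1os, and down to -0.41, for Tspan32os. Rab10os, opposite the small GTPase gene Rab10, had 58.7 and 65.2 CPM in WT and 61.9 and 61.3 in KO. Brip1os had 34.0 and 32.9 in WT and 35.0 and 34.2 in KO; the coding gene that it overlaps most is Ints2, an Integrator subunit gene, at -0.05. Sp3os had 15.3 and 14.3 in WT and 15.6 and 15.3 in KO.

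Of the 6 antisense RNAs with no protein-coding gene on the other strand, Map2k3os, Gm11520, B230369F24Rik and AV099323 overlapped no gene at all there in the deposited table. Gm28727 lay opposite a lincRNA and a miRNA gene, and had 57.1 and 61.2 CPM in WT and 57.5 in both KO libraries. 2010309G21Rik, which fell, lay opposite immunoglobulin V, J and C gene segments. Gm11520 had 23.4 and 23.9 CPM in WT and 20.6 and 19.9 in KO (-0.23 ± 0.12, edgeR adjusted p = 0.297). B230369F24Rik, which follows Hnrnpu on its own strand, had 9.45 and 10.2 in WT and 9.87 and 10.5 in KO, and AV099323 had 13.9 and 12.4 in WT and 11.3 and 13.1 in KO.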
